A study of Mus musculus with 8 samples.

Results

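Prostaglandin E2 and its relatives are lipid signals made from arachidonic acid, and 10 genes of their release, synthesis, breakdown and reception were followed in sorted mouse sarcoma cells. The genes were taken by name as Pla2g4a, Ptgs1, Ptgs2, Ptges, Ptges2, Ptges3, Ptgis, Hpgd, Ptger2 and Ptger4, out of 35498 genes measured. Of the 10, 9 had enough reads to be tested, and Hpgd did not. The study asked what Mif, the cytokine macrophage migration inhibitory factor, does to pathways of the tumour cells that make it.

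All cells, of strain C57BL/6, were mesenchymal stem cells transformed by p53 knockout and Ccne1 overexpression, passed through a first tumour and regrown on polyurethane scaffolds under the skin of recipient mice. The sgMif group carried Cas9 and a guide RNA against Mif (labelled a knockout), and the sgSCR group carried Cas9 and a control guide. The shMif group carried a hairpin RNA against Mif (labelled a knockdown), and the shSCR group carried a control hairpin. For the hairpin cells the design text also names Cas9, while the growth protocol names it for the guide cells alone. Each group held 2 libraries, numbered 1 and 2, of cells sorted from digested tumours on a fluorescent marker. No label ties the paired libraries to separate mice or calls a line a single clone. The p-values therefore reflect library-to-library spread alone, and that spread could be technical.

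Prostaglandin synthesis runs in steps. Cytosolic phospholipase A2, the product of Pla2g4a, frees arachidonic acid from membranes. The cyclooxygenases COX-1 (Ptgs1) and COX-2 (Ptgs2) turn it into prostaglandin H2, from which terminal synthases make the active lipids. The synthase of Ptges is inducible and is often paired with COX-2, and its product acts on neighbouring cells through receptors such as EP2 (Ptger2) and EP4 (Ptger4). Hpgd encodes the dehydrogenase that starts the breakdown of prostaglandin E2. In tumours, prostaglandin E2 is known for shaping macrophages and other immune cells.

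The 3 promoters shown are those of Ptges, of Ptgfr, a prostanoid receptor gene whose levels followed those of Ptges most closely among prostanoid genes here, and of Ptgs2, the most abundant of the 10 by TPM (a share of all transcripts in a library, relative to transcript length). Each runs from 250 bases before to 50 bases after the gene's start in RefSeq on GRCm38.p6, 5′ to 3′. Capitals mark every match of 6 short motifs, searched on both strands.

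Ptges, chr2:30903248-30903547, minus strand: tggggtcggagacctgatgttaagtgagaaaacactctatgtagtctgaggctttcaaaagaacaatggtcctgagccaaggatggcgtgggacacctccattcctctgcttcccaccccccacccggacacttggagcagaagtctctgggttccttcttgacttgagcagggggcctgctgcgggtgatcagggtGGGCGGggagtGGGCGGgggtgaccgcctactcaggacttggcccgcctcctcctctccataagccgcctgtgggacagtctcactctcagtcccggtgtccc

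Ptgfr, chr3:151837479-151837778, minus strand: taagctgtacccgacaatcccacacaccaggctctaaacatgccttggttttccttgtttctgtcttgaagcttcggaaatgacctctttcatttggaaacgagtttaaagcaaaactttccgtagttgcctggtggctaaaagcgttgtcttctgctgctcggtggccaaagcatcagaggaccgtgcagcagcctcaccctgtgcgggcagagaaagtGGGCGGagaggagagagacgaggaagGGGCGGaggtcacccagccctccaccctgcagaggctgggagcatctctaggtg

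Ptgs2, chr1:150099781-150100080, plus strand: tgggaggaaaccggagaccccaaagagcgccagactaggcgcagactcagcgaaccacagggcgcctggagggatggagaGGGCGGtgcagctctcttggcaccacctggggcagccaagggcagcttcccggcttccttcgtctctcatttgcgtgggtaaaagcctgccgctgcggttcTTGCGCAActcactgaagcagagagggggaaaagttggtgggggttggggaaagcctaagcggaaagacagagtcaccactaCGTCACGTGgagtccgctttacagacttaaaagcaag

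The motifs searched were the TATA box (TATAAA), the CRE half-site bound by CREB (CGTCA), the GC box of Sp1-like factors (GGGCGG), an EGR site (GCGNGGGCG), a C/EBP site (TTNNGCAA) and the E-box (CACGTG). The promoters of Ptges and Ptgfr held 2 GC boxes each and no other of these motifs. At least 1 GC box was found in 35.7% of all 32851 promoters in the table, and 2 or more in 19.5%. The Ptgs2 promoter held 1 GC box, 1 C/EBP site, which 10.8% of promoters hold, and a CRE half-site (20.8%) that overlaps an E-box (7.15%). The TATA box letters were found in 13.6% of promoters and the EGR letters in 5.55%, and neither was found in these 3. These matches describe the letters only.

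The libraries held 19042235 to 51819308 estimated reads. Mif itself stood at 221 and 222 CPM (read counts scaled to the library's total and between libraries) in sgMif 1 and 2, against 377 and 455 CPM in sgSCR 1 and 2 (edgeR adjusted p = 0.215). In the hairpin system it stood at 277 and 222 CPM in the libraries labelled shMif, against 170 and 375 CPM in shSCR, which overlap, so a knockdown was not visible in Mif RNA. Summed over 11 sarcoma or mesenchymal markers, 30900 to 54800 CPM were found per library, as the cell label implies, although host fibroblasts express many of these genes too. Sums of markers of other cells were lower, at 185 and 193 CPM in sgMif, 527 and 275 in sgSCR, 553 and 308 in libraries labelled shMif and 314 and 363 in shSCR for 16 macrophage genes. Much of the gap between sgMif and sgSCR lay in Mrc1 and Cd163. Mrc1 held 2.01 and 5.59 CPM in sgMif and 107 and 34.0 CPM in sgSCR. Cd163 held 0 CPM in both sgMif libraries and 103 and 24.9 CPM in sgSCR. Libraries also differed in reads on olfactory receptor genes, with 5 libraries at 1330 to 2544 CPM and sgMif 2, shMif 2 and shSCR 2 at 380 to 553 CPM. Values from the 5 libraries alone are given where they change a call.

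By TPM, COX-2 was the most abundant transcript of the 10 and Hpgd the scarcest. Ptgs2 ranged from 228 to 394 TPM over the 8 libraries, above every value of the other 9 genes. Ptges3 (83.3 to 121 TPM) and Ptges (33.1 to 138 TPM) followed, with overlapping ranges. Ptgs1 (17.3 to 46.2 TPM) overlapped both Ptges above it and Pla2g4a (17.1 to 25.4 TPM) below it. Ptges2 came next at 9.11 to 16.8 TPM, then Ptgis (1.01 to 4.45 TPM) and Ptger4 (1.15 to 4.25 TPM), which overlapped. These values are sums over all transcripts of a gene. A transcript with a retained intron held 68.5 to 91.7% of the Ptges2 TPM, and the coding share was 8.27 to 16.7%. The place of Ptges2 above Ptgis and Ptger4 holds for the sums, and was not computed on coding transcripts alone. Ptger2 (0.0476 to 0.58 TPM) and Hpgd (0 to 0.142 TPM) overlapped at the bottom. Reductases that act after Hpgd in breakdown, named here after their values were seen, were present, with Zadh2 at 15.3 to 30.3 TPM and Ptgr1 at 5.04 to 13.5 TPM. Within each library Ptgs2 stood 5.95 to 14.6 times as high as Ptgs1 in TPM summed over all transcripts. Coding transcripts made up 100% of the Ptgs2 TPM in every library, but 5.05 to 60.0% of the Ptgs1 TPM. The lowest ratio, 5.95, and the lowest coding share, 5.05%, were both those of sgSCR 2. The ratio was not computed on coding transcripts alone.

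**Figure D1:**
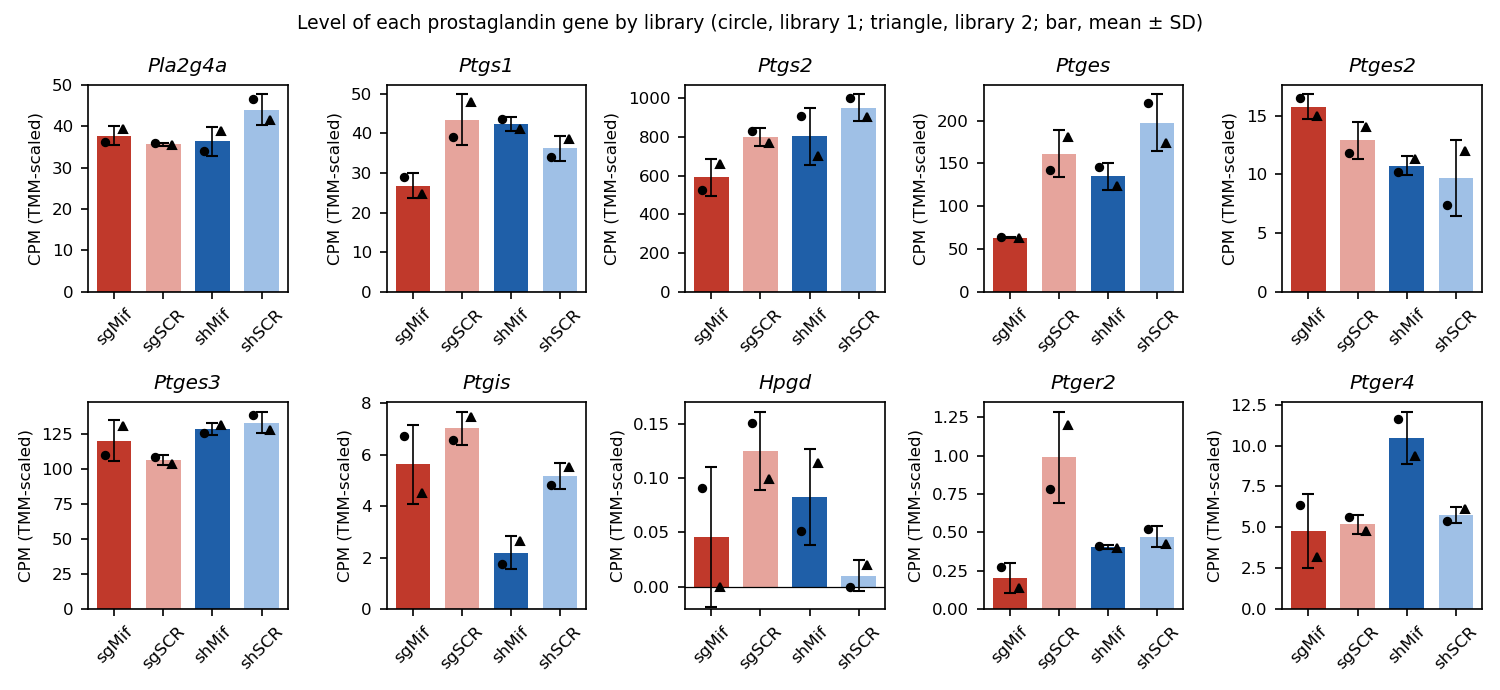
Level in CPM (y axis, scaled between libraries by the trimmed mean of M values) of the 10 genes in sgMif, sgSCR, shMif and shSCR; circles are library 1, triangles library 2, bars the mean with the SD of 2 libraries, and each panel has its own scale. Ptges stands at 63.7 and 62.9 CPM in sgMif, below all 6 other libraries.

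Between the guide groups, Ptges was the 1 gene of the 9 tested that passed edgeR's test. The terminal synthase held 63.7 and 62.9 CPM in sgMif 1 and 2, against 142 and 181 CPM in sgSCR 1 and 2. Both sgMif libraries lay below every library of the other 3 groups. The mean was 63.3 ± 0.514 CPM in sgMif and 162 ± 27.3 CPM in sgSCR (SD, n = 2 each), so Ptges fell 2.55-fold, which is -1.35 ± 0.18 on the log2 scale (SE), with an edgeR adjusted p = 0.032 over all 16309 genes tested. Over all genes tested, 0.987% were called in this comparison, with 101 lower (0.619%) and 60 higher (0.368%). Of the 9 genes 4 had an unadjusted p under 0.05, and of all genes tested 16.6% did. In bulk libraries, fewer cells that make Ptges cannot be told apart from less Ptges RNA per cell.

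Leaving out sgMif 1, sgMif 2, sgSCR 1 or sgSCR 2 gave Ptges log2 fold changes of -1.36, -1.34, -1.52 and -1.15. Ptges was not called in any of these fits, each of which leaves 1 library in a group. Nearly all other calls of this comparison were lost in them too, so the loss is not particular to Ptges. Ptges was also not called without shMif 2. With counts scaled by transcript length its log2 fold change was -1.21 (edgeR adjusted p = 0.0915).

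Ptges (ENSMUSG00000050737) lies on chromosome 2, from 30889471 to 30929863 on the minus strand in mm10. Its coding transcript Ptges-202, which starts at the promoter shown, held 86.0 to 91.9% of the gene's reads in the 8 libraries, and protein-coding transcripts alone gave a log2 fold change of -1.43 (edgeR adjusted p = 0.0312). Shorter non-coding transcripts held the rest of the reads, but weighed more on the TPM scale, where coding transcripts made up 44.6 to 58.3% of the gene's level. Genes listed as markers of other cells also differed between the guide groups. The 11 host skin fibroblast markers summed to 1040 and 843 CPM in sgMif and 2070 and 1790 CPM in sgSCR, with 9 negative, 2 positive and 1 called, Dcn. Most of that gap was Dcn, at 307 and 192 CPM in sgMif and 1240 and 1030 CPM in sgSCR, and the other 10 summed to 731 and 651 CPM in sgMif and 837 and 759 CPM in sgSCR. The 9 smooth muscle or pericyte markers went the other way, at 1250 and 862 CPM in sgMif and 401 and 444 CPM in sgSCR, with 7 positive and 1, Acta2, called higher. Acta2 alone held 660 and 435 CPM in sgMif and 106 and 110 CPM in sgSCR. Bulk libraries do not show whether these genes came from other cells or from the sarcoma cells themselves. Their part in the Ptges result was not tested. The fibroblast markers summed to 1400 and 1430 CPM in libraries labelled shMif and to 1250 and 1420 CPM in shSCR, and none of the 11 was at 0 reads in any group.

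The cyclooxygenases were lower in sgMif without passing the test. Ptgs2 (ENSMUSG00000032487, chromosome 1, 150100031 to 150108227, plus strand) held 524 and 659 CPM in sgMif, against 831 and 768 CPM in sgSCR. The groups did not overlap, and Ptgs2 differed by -0.43 ± 0.177 on the log2 scale (SE) at an edgeR adjusted p = 0.278. In the 5 libraries of high olfactory reads it was -0.61 (adjusted p = 0.0327), there with 1 library in every group but sgSCR, whose 2 libraries alone set the spread.

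Ptgs1 (ENSMUSG00000047250, chromosome 2, 36230426 to 36252272, plus strand) held 29.0 and 24.6 CPM in sgMif, against 39.0 and 48.0 CPM in sgSCR. Here too both sgMif libraries were the lower ones, at a log2 fold change of -0.70 ± 0.167 (SE, edgeR adjusted p = 0.096), which DESeq2 called (-0.72, adjusted p = 0.0134), a tool that called 6.07% of all genes here, as did edgeR with no filter on low counts (-0.68, adjusted p = 0.0218). Platelets and macrophages are known sources of COX-1, and the sums of their markers were lower in sgMif too. The 6 platelet genes summed to 2.60 and 2.62 CPM in sgMif and 18 and 7.13 CPM in sgSCR. Within sgSCR the platelet and macrophage sums were lower in library 2 than in library 1, while Ptgs1 was higher in library 2. Sums of 8 mast cell markers were also lower in sgMif, at 6.94 and 3.92 CPM, against 25.5 and 13.8 CPM in sgSCR. Most of the platelet sums in sgSCR was Pf4, at 14.9 and 3.74 CPM, and Gp9 was at 0 reads in sgMif and sgSCR. The macrophage marker Cd163 was at 0 reads in sgMif, against 4080 and 500 reads in sgSCR. Cd163 had 2 and 12 reads in the libraries labelled shMif and 23 and 1 reads in shSCR, so it was high in sgSCR alone. The part of these cells in the Ptgs1 level was not tested.

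The Ptgs1 values depend on which transcripts are summed. The coding transcript Ptgs1-201 held 69.4 and 56.9% of the gene's reads in sgMif 1 and 2, and 48.6 and 10.7% in sgSCR 1 and 2. It held 54.7 and 77.4% in the libraries labelled shMif, and 67.7 and 68.4% in shSCR, so sgSCR 2 stood apart from the other 7. Most of its Ptgs1 reads, 69.7%, were assigned to Ptgs1-204, a non-coding transcript of 2741 bases that is nearly as long as the coding one of 2867 bases. With protein-coding transcripts alone the log2 fold change of Ptgs1 between sgMif and sgSCR was 0.44 (edgeR adjusted p = 0.714), and without sgSCR 2 it was -0.20 (adjusted p = 0.814).

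**Figure D2:**
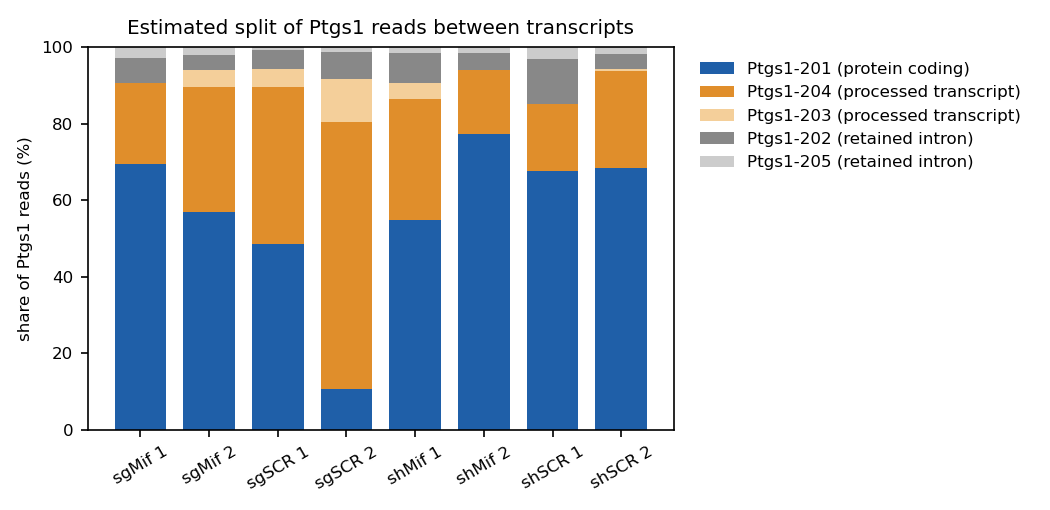
Share of the estimated Ptgs1 reads (y axis, percent) assigned to each of 5 annotated transcripts in the 8 libraries, with coding Ptgs1-201 in blue, non-coding transcripts in orange shades and retained-intron transcripts in grey. The coding share is 10.7% in sgSCR 2 and 48.6 to 77.4% in the other 7 libraries.

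Release of arachidonic acid and the other synthases did not pass the test between sgMif and sgSCR. Pla2g4a (ENSMUSG00000056220, chromosome 1, 149829618 to 149961290, minus strand), whose gene ends 138740 bases from that of Ptgs2, held 36.2 and 39.3 CPM in sgMif, against 35.9 and 35.4 CPM in sgSCR. On the log2 scale it differed by 0.08 ± 0.145 (SE, edgeR adjusted p = 0.807). Ptges2 (ENSMUSG00000026820), a second enzyme credited with prostaglandin E2 synthesis, held 16.5 and 15 CPM in sgMif, against 11.8 and 14.0 CPM in sgSCR (log2 fold change 0.29, edgeR adjusted p = 0.615).

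Ptges3 (ENSMUSG00000071072), the cytosolic synthase also known as the HSP90 co-chaperone p23, held 110 and 131 CPM in sgMif, against 109 and 104 CPM in sgSCR (0.19, edgeR adjusted p = 0.525). Pla2g4a, Ptges2 and Ptges3 each had both sgMif libraries above both sgSCR libraries, although Pla2g4a turned to -0.14 with counts scaled by transcript length. A processed pseudogene, Ptges3-ps, is identical to Ptges3 over 480 bases and took 8.38 to 16.7% of the reads on the gene and its copies, so the split of Ptges3 reads is uncertain. Ptgis (ENSMUSG00000017969), which makes prostacyclin and is known from endothelium and smooth muscle, held 6.71 and 4.53 CPM in sgMif, against 6.56 and 7.48 CPM in sgSCR, which overlap (-0.32, edgeR adjusted p = 0.678).

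Of the 9 tested genes, 4 had both sgMif libraries below both sgSCR libraries and 3 had both above, where 24.2% and 27.1% of all genes tested did. The median log2 fold change of the 9 was -0.32, and that of all genes tested -0.01. Set beside its partner, Ptges stood at 0.176 and 0.145 times the TPM of Ptgs2 in sgMif, against 0.253 and 0.355 in sgSCR. The ratio was 0.235 and 0.209 in the libraries labelled shMif, and 0.458 and 0.309 in shSCR. Each Mif-targeted group thus lay below its control group in this ratio, without overlap. Short transcripts weigh on it. Ptgs2-202, of 358 bases, took 27.2 and 35.0% of the Ptgs2 TPM in the libraries labelled shMif, and 0.987 and 12.7% in shSCR. In sgMif it took 25.5 and 11.3%, and in sgSCR 15.8 and 9.44%. Non-coding Ptges-204 took 35.5% of the Ptges TPM in shSCR 1. The ratio was not computed on the main coding transcripts alone. With 2 libraries in each group no test of this ratio was run.

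The receptors and the breakdown enzyme were scarce. Ptger4 (ENSMUSG00000039942), the gene of EP4, held 6.39 and 3.20 CPM in sgMif, against 5.61 and 4.79 CPM in sgSCR, and the groups overlapped (log2 fold change -0.13, edgeR adjusted p = 0.894, and 0.30 without sgMif 2). Ptger2 (ENSMUSG00000037759), the gene of EP2, had 6 and 6 reads in sgMif, against 31 and 24 reads in sgSCR. Both sgMif libraries were lower, but the log2 fold change of -2.28 ± 0.837 (SE) did not pass (edgeR adjusted p = 0.228). With protein-coding transcripts alone it was -0.88 (adjusted p = 0.759). A transcript with a retained intron took most of the Ptger2 reads in some libraries, so that the coding share ran from 7.58 to 100%.

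Hpgd (ENSMUSG00000031613), the breakdown gene, had 2 and 0 reads in sgMif, against 6 and 2 reads in sgSCR. It had 1 and 4 reads in the libraries labelled shMif, against 0 and 1 reads in shSCR. At this depth 3 reads correspond to 0.058 to 0.158 CPM, so a difference in Hpgd was not detectable, and no fold is given.

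**Figure D3:**
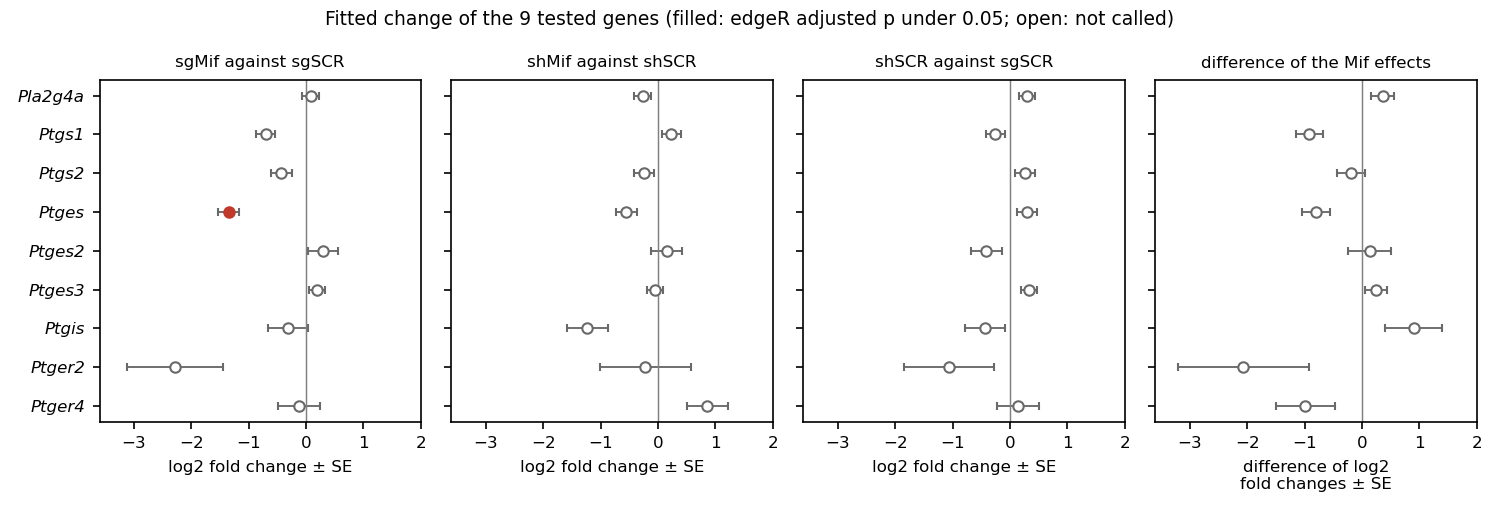
Log2 fold change (x axis) of the 9 tested genes with its SE in sgMif against sgSCR, shMif against shSCR and shSCR against sgSCR, and the difference of the Mif effects, with filled points for genes past the edgeR threshold and open points for genes that did not pass. The filled point is Ptges at -1.35 in sgMif against sgSCR.

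In the hairpin system 0 of the 9 tested genes passed edgeR's test, where 0.0184% of all genes did, and 3 of the 9 had an unadjusted p under 0.05, against 9.26% of all genes. Of the 9, 4 had both libraries labelled shMif below both shSCR libraries and 2 had both above, where 22.3% and 19.4% of all genes did. DESeq2 called 0 of them as well, and 1.12% of all genes. Ptges was again lower, at 146 and 124 CPM in the libraries labelled shMif, against 221 and 174 CPM in shSCR. These groups did not overlap, and Ptges differed by -0.55 ± 0.177 on the log2 scale (SE) at an edgeR adjusted p = 0.476. With no filter on low counts it was -0.59 and passed (adjusted p = 0.041). Mif itself overlapped between these groups, as given above.

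Ptgis and Ptger4 gave the largest differences among the 9 in this system when all transcripts were summed. Ptgis held 1.75 and 2.65 CPM in the libraries labelled shMif, the 2 lowest values of all 8, against 4.82 and 5.53 CPM in shSCR (log2 fold change -1.23 ± 0.356 SE, edgeR adjusted p = 0.456). Endothelial markers, 10 genes of which 0 were without reads, summed to 170 and 59.7 CPM in the libraries labelled shMif and to 210 and 44.8 CPM in shSCR, which overlap. Most of the sums of library 1 was Pecam1, at 154 and 37.0 CPM in the libraries labelled shMif and 195 and 20.8 CPM in shSCR. The 9 smooth muscle or pericyte markers summed to 612 and 679 CPM in the libraries labelled shMif and to 524 and 616 CPM in shSCR, which overlap too. Ptger4 held 11.6 and 9.33 CPM in the libraries labelled shMif, the 2 highest of all 8, against 5.39 and 6.09 CPM in shSCR (0.86 ± 0.363, adjusted p = 0.529).

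None of the other members passed. Ptgs2 held 906 and 700 CPM in the libraries labelled shMif, against 1000 and 904 CPM in shSCR, and the groups overlapped (-0.25, edgeR adjusted p = 0.676, and 0.16 with counts scaled by transcript length). Ptgs1 held 43.7 and 41.1 CPM in the libraries labelled shMif, against 34.0 and 38.5 CPM in shSCR (0.23, adjusted p = 0.686). Pla2g4a held 33.9 and 38.8 CPM in the libraries labelled shMif, against 46.6 and 41.4 CPM in shSCR (-0.27, adjusted p = 0.592). Ptges2 held 10.2 and 11.3 CPM in the libraries labelled shMif, against 7.39 and 12.0 CPM in shSCR, which overlap (0.15, adjusted p = 0.886, and -0.16 without shSCR 1). Ptges3 held 126 and 132 CPM in the libraries labelled shMif, against 139 and 128 CPM in shSCR, which overlap too (-0.05, adjusted p = 0.931). Ptger2 had 8 and 14 reads in the libraries labelled shMif, against 20 and 21 reads in shSCR (-0.22, adjusted p = 0.952). With protein-coding transcripts alone this value turned to 1.47 (adjusted p = 0.705).

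The difference of the Mif effects, sgMif against sgSCR minus shMif against shSCR, was tested as an interaction. It passed for 0 of the 9 tested genes with edgeR, where 0.092% of all genes passed (0.00613% higher, 0.0858% lower). An unadjusted p under 0.05 was found for 2 of the 9 and for 15.8% of all genes. For Ptges the difference was -0.80 ± 0.25 (SE, edgeR adjusted p = 0.206), and for Ptgs1 -0.92 ± 0.235 (adjusted p = 0.168). DESeq2 called 1 of the 9, Ptgs1 (-0.96, adjusted p = 0.0289), and 4.01% of all genes. With protein-coding transcripts alone the Ptgs1 difference turned to 0.27 (edgeR adjusted p = 0.879). A difference in the response of Ptges between the systems was thus not shown, nor was likeness.

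The control groups were compared to show how far the systems differ without a Mif target. Between shSCR and sgSCR 0 of the 9 passed edgeR's test, where 4.02% of all genes did (2.23% higher, 1.79% lower). Of the 9, 1 had an unadjusted p under 0.05, against 22.9% of all genes, and 3 lay wholly above and 3 wholly below sgSCR, where 28.4% and 26.3% of all genes did. With DESeq2, too, 0 passed, where 11.9% of all genes did. Ptges stood at 221 and 174 CPM in shSCR, against 142 and 181 CPM in sgSCR, which overlap (log2 fold change 0.29 ± 0.176 SE, edgeR adjusted p = 0.369). This comparison shares the sgSCR libraries with the guide comparison and the shSCR libraries with the hairpin comparison. The largest of the 9 by size was Ptger2 at -1.06 ± 0.781 (adjusted p = 0.455), with 20 and 21 reads in shSCR, against 31 and 24 in sgSCR.

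Among the other prostanoid receptors, Ptgfr, the receptor of prostaglandin F2alpha, fell 2.45-fold in sgMif. It held 21.7 and 21.8 CPM in sgMif, against 46.7 and 59.8 CPM in sgSCR, a difference of -1.29 ± 0.182 on the log2 scale (SE) at an edgeR adjusted p = 0.033. It was the 1 gene called of 7 tested in this list of 11, whose median log2 fold change was -0.36. Leaving out any of sgMif 1, sgMif 2, sgSCR 1, sgSCR 2, shMif 1 or shMif 2 ended the call, at log2 fold changes of -1.08 to -1.47. Leaving out a guide library ended nearly all calls of this comparison, so that loss is not particular to Ptgfr. A term for the class of library also ended the call of Ptgfr (-1.21, edgeR adjusted p = 0.0531). In the hairpin system Ptgfr held 51.2 and 46.8 CPM in the libraries labelled shMif, against 71.0 and 55.8 CPM in shSCR (-0.37, adjusted p = 0.566).

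Ptgfr also had one of the patterns most like that of Ptges. Over the 8 libraries, Pearson's r of log2 CPM with Ptges was highest for Plxna4 and Ptgfr, at 0.994 each, among 11067 protein-coding genes. Ets2 (0.987), Slitrk6 (0.984) and Ndrg1 (0.984) followed. All 5 had their lowest values in the 2 sgMif libraries, such as 16.5 and 16.2 CPM for Plxna4, against 55.6 and 63.5 CPM in sgSCR. For Ptgs2 the highest were Btg1 (0.979), Slc48a1 (0.965), Plbd1 (0.963), Prelid2 (0.959) and Rgs1 (0.954). These correlations describe 8 libraries that share their groups and were picked as the highest of many.

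**Figure D4:**
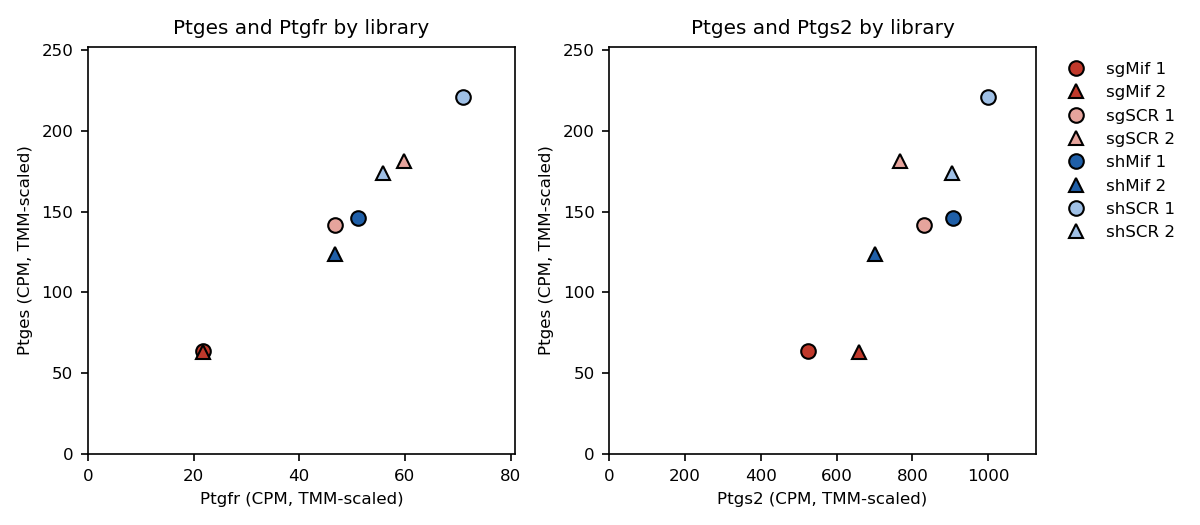
Level of Ptges (y axis, CPM) against that of Ptgfr and of Ptgs2 (x axes, CPM), 1 point for each of 8 libraries, coloured by group, with circles for library 1 and triangles for library 2. The 2 sgMif points lie at 62.9 and 63.7 CPM of Ptges and at 21.7 and 21.8 CPM of Ptgfr, apart from the other 6.

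The rest of the pathway gave few calls. In the guide comparison 0 of 21 tested genes of arachidonate release and transport passed, with Acsl4, which esterifies arachidonate to coenzyme A, at 0.92 ± 0.178 (SE, edgeR adjusted p = 0.0591) on the count scale and 27.2 and 35.0 TPM in sgMif against 31.8 and 34.8 TPM in sgSCR, which overlap. Abcc4, an exporter of prostaglandins, stood at -0.90 ± 0.217 (adjusted p = 0.0977). Of 14 other prostanoid synthases and reductases 0 passed, with Tbxas1, thromboxane synthase, at 3.06 and 0.834 CPM in sgMif and 7.12 and 4.89 CPM in sgSCR. The medians of these 2 lists were -0.35 and -0.46.

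Known regulators of Ptgs2 and Ptges did not pass in sgMif either. Of 26 tested, 0 passed edgeR's test and 19 had negative log2 fold changes, at a median of -0.26. Il1r1, the receptor of interleukin-1, held 76.2 and 75.2 CPM in sgMif, against 165 and 134 CPM in sgSCR (-0.98 ± 0.189 SE, edgeR adjusted p = 0.0589). Egr1, an immediate-early factor known to bind the human PTGES promoter, held 215 and 196 CPM in sgMif, against 493 and 485 CPM in sgSCR (-1.25, adjusted p = 0.0643). In the hairpin system Il1r1 was lower in the libraries labelled shMif, as Ptges was. It held 68.9 and 83.7 CPM there, against 118 and 87.8 CPM in shSCR (-0.43, edgeR adjusted p = 0.539). Egr1 went the other way in that system, at 224 and 182 CPM in the libraries labelled shMif and 63.3 and 112 CPM in shSCR. Between the controls it fell 5.57-fold in shSCR against sgSCR (-2.48 ± 0.261, adjusted p = 0.00471).

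A list on cyclic AMP, the messenger of EP2 and EP4, held genes that respond to it and signalling components such as Gnas, Adcy7, Prkar1a, Prkar2b and Arrb1. It gave 0 calls among 20 in sgMif against sgSCR, at a median of -0.44. Arrb1, a beta-arrestin, held 22.2 and 16.2 CPM in sgMif, against 53.6 and 45.2 CPM in sgSCR (-1.37 ± 0.246 SE, edgeR adjusted p = 0.0502), and Pde4b, a phosphodiesterase of cyclic AMP, stood at -0.91 (adjusted p = 0.0799). Prkar2b, a regulatory subunit of protein kinase A, went the other way, at 67.0 and 63.0 CPM in sgMif, against 36.5 and 39.4 CPM in sgSCR (0.78, adjusted p = 0.0767). In the hairpin comparison 0 genes of the 6 wider lists passed, and their medians lay between -0.19 and 0.24, where all genes had 0.03. In shSCR against sgSCR the called genes beside Egr1 were all higher, namely Plaa (0.97), Acsl4 (1.15), Ptgr1 (1.28), a reductase of prostaglandins and leukotriene B4, Adcy7 (0.89) and Prkar2b (0.93), at edgeR adjusted p values of 0.0147 to 0.0301. These 5 calls were lost with the replicate number as a block (adjusted p = 0.0657 to 0.121) and without sgSCR 1 or sgSCR 2 (0.0716 to 0.163). For Acsl4 the difference was 0.09 with counts scaled by transcript length (adjusted p = 0.84), and its TPM overlapped, at 36 and 29.9 in shSCR and 31.8 and 34.8 in sgSCR. For the difference of the Mif effects 0 genes of the 6 lists passed, with Egr1 at -2.46 ± 0.355 (adjusted p = 0.0719).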

How the data were processed

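Total RNA of cells sorted from tumours was sequenced in 8 libraries, 2 in each of 4 groups taken from the sample titles. Per the submitters' processing notes, the authors used Trimmomatic and Salmon with build mm10. Tool versions, library kit and strandedness are not given here. In the tables the authors deposited there is an estimated count of reads and a TPM value for each of 116546 transcripts. Effective length, by which TPM is scaled, has its own column, per the file headers.

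Transcripts were joined to genes through GENCODE M21, where 115977 matched, and the unmatched 569 held 0.101 to 0.205% of reads. Estimated counts were summed per gene and rounded, and TPM values were summed. Totals of 19042235 to 51819308 reads set the precision. Genes were kept by filterByExpr (minimum count 10, minimum total 15), which left 16309. TMM factors (trimmed mean of M values) scaled the libraries, and edgeR 4.0.16 in R 4.3.3 tested them in 1 quasi-likelihood fit with a mean for each of the 4 groups, which leaves 4 residual degrees of freedom, adjusted by Benjamini-Hochberg at 0.05. An SE is the log2 fold change divided by the root of the F statistic. Copies of the genes were sought with blastn 2.17.0 (at least 90% identity over 200 bases). Promoters are from RefSeq on GRCm38.p6, where 9 of the 10 genes matched.

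The members and gene lists were chosen with earlier results of these data known. The genes named are the members, genes of the lists past the threshold, up to 4 per list with the smallest p, and the 5 genes most correlated with Ptges and with Ptgs2, among protein-coding genes whose log2 CPM averaged 1 or more. Cell type markers are shown for some of the listed cell types, chosen with the results known, and include sums that overlapped or went the other way. The alternatives tried were RLE size factors, DESeq2 1.42.0, testing unfiltered genes, counts scaled by transcript length, protein-coding transcripts alone, a replicate block, each system alone, the class of library (above or below 1000 CPM on olfactory receptor genes) as a term, the 5 high libraries alone, and each library left out, when the lone library of a group is assumed to vary like the others. Protein-coding transcripts without sgSCR 2 came in as an alternative chosen after seeing the data. The fits were tested on simulated data.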

Additional observations from a re-analysis of the deposited data

Results flagged for a closer look

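For 2 of the 9 tested members and 17 of the 99 tested genes of the 6 pathway lists, both sgMif libraries lay on one side of the sgSCR libraries and both libraries labelled shMif on the other side of the shSCR libraries. The share of all genes tested with such opposite sides was not counted, so these counts are not read as a result. Of all genes tested, 24.2% lay wholly below and 27.1% wholly above in the guide comparison. In the hairpin comparison 22.3% and 19.4% did. The difference of the log2 fold changes, sgMif against sgSCR minus shMif against shSCR, was tested as an interaction. It did not pass with edgeR for any of the 19 members and list genes (adjusted p = 0.0719 to 0.527). Of the members it was 0.36 for Pla2g4a (adjusted p = 0.424) and -0.92 for Ptgs1 (adjusted p = 0.168). Higher in sgMif and lower in the libraries labelled shMif, each against its control, were also Anxa1 (0.76), Plaa (0.81), Ptgr1 (1.07), Gstm2 (0.69) and Elavl1 (0.24). Lower in sgMif and higher in the libraries labelled shMif were Egr1 (-2.46, the smallest adjusted p), Cebpd (-2.78), Klf4 (-0.92), Dusp1 (-0.77) and Rela (-0.60) among the regulators. Pla2g6 (-0.69), Pnpla2 (-0.92), Daglb (-0.84) and Ptger1 (-2.68) did likewise, as did Alox5ap (-1.56), Aloxe3 (-3.67) and Alox5 (-5.27), the last with 0 reads in sgMif 1, so that its fitted value depends on the prior count.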

How the results depend on the processing

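Values are log2 fold changes or counts of genes called. Among the named members and the called list genes, 687 values under alternatives kept direction and call, 40 lost the call, 5 gained it and 18 changed sign. Ptges in sgMif against sgSCR stayed between -1.52 and -1.15. Against 1 of the members called in that comparison, DESeq2, no filter and the 5 high libraries gave 2, scaling by transcript length and protein-coding transcripts without sgSCR 2 gave 0, and leaving out a library gave 0 to 1. In shMif against shSCR no filter called 1, and for the difference of the Mif effects DESeq2 called 1. Signs turned with scaling by transcript length for Pla2g4a in sgMif against sgSCR (-0.14) and in shSCR against sgSCR (-0.13) and for Ptgs2 in shMif against shSCR (0.16), and with protein-coding transcripts for Ptgs1 in sgMif against sgSCR (0.44), in the difference (0.27) and in shSCR against sgSCR (1.00, and 0.35 without sgSCR 2) and for Ptger2 in shMif against shSCR (1.47, and 1.49 without sgSCR 2). Ptger4 in sgMif against sgSCR turned with the class term (0.01), in the high libraries (0.29) and without sgMif 2 (libraries left out, -0.69 to 0.30). Ptges2 turned in shMif against shSCR without shSCR 1 (-0.16 to 0.54), and in the difference in the high libraries (-0.10) and without shSCR 2 (-0.24 to 0.46). Ptgs2 turned in the difference without sgMif 1 (0.01) or shMif 1 (-0.34 to 0.02). Counts of all genes called were 161 in sgMif against sgSCR (DESeq2 990, no filter 1494, length scaling 15, class term 49, high libraries 534, a library left out 0 to 356, coding without sgSCR 2 0), 3 in shMif against shSCR (182, 662, 5, 7, 1162, 0 to 758, 2, and 0 in that system alone), 15 for the difference (654, 1306, 0, 19, 999, 0 to 527, 0, and 0 with coding transcripts) and 655 in shSCR against sgSCR (1948, 2425, 288, 669, 2747, 60 to 1848, 78). With the replicate number as a block, Ptges in sgMif against sgSCR was -1.34 (edgeR adjusted p = 0.0163) and Ptger4 in shSCR against sgSCR turned to -0.12, while Plaa, Acsl4, Ptgr1, Adcy7 and Prkar2b lost their calls, and the counts were 263, 14, 50 and 210. Same-numbered libraries deviated together at correlations of 0.18 in the guide and 0.26 in the hairpin system, with 2 pairs in each, so the numbers were not taken as pairs. The causes of these changes were not tested. Depth limits Hpgd and Ptger2.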

Other observations

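The sister branch of arachidonate use, the lipoxygenases and leukotrienes, held 16 genes, of which 11 were tested. In sgMif against sgSCR 0 of the 11 passed edgeR's test, 9 had negative log2 fold changes and the median was -1.51. That median is the value of Aloxe3, which had 5 and 2 reads in sgMif, against 19 and 5 reads in sgSCR. Genes with larger falls were scarce too, such as Alox15 with 0 and 2 reads in sgMif, against 38 and 20 reads in sgSCR. The median thus rests on genes of few reads. Of all 16309 genes tested, 8242 were negative and the median was -0.01. The 2 positive genes of the branch were Lta4h (0.18) and Cyp2j6 (0.21). Lta4h held 57.6 and 54.6 CPM in sgMif, against 52.4 and 46.6 CPM in sgSCR. Cyp2j6 held 19.2 and 25.1 CPM in sgMif, against 17.5 and 20.9 CPM in sgSCR, which overlap. Alox5ap, the protein that hands arachidonate to 5-lipoxygenase, held 3.65 and 3.49 CPM in sgMif, against 8.15 and 5.78 CPM in sgSCR (-0.97, adjusted p = 0.211). Alox5, the 5-lipoxygenase itself and typical of leukocytes, held 0 and 0.135 CPM in sgMif, against 1.28 and 1.05 CPM in sgSCR (adjusted p = 0.158). Alox15 held 0 and 0.0451 CPM in sgMif, against 0.956 and 0.997 CPM in sgSCR (adjusted p = 0.104). The sum of the 16 macrophage markers, 185 and 193 CPM in sgMif and 527 and 275 CPM in sgSCR, was lower in the same libraries. Of the 16, 14 were negative and 2, Mrc1 and Cd163, were called lower. The 8 mast cell markers summed to 6.94 and 3.92 CPM in sgMif and 25.5 and 13.8 CPM in sgSCR, with all 6 tested negative and 0 called. They summed to 33.4 and 13.1 CPM in the libraries labelled shMif and 13.4 and 6.70 CPM in shSCR, which overlap, with all 6 positive. The part of either cell type in these values was not tested. In shMif against shSCR the median of the 11 was 0.22, where all genes tested had 0.03.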
